A study of Mus musculus with 2 samples.

Results

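The enzymes and loading factors that copy chromosomal DNA were examined as 41 genes, chosen by symbol: the origin recognition complex, the licensing factors, the MCM2-7 ring, the factors that activate it, the replicative polymerases, the sliding clamp and its loader, the single-strand binding protein and the enzymes that finish the lagging strand. All 41 were found, among 43346 Ensembl genes of which 21474 were protein coding. RNA came from erythroblasts, the nucleated precursors of red cells, taken as Ter119+ primary cells from the liver of mouse embryos of pooled sex at day 14.5 of gestation. Ter119 is a marker protein on the surface of maturing red cells. Poly(A) RNA was sequenced as paired ends in 2 libraries of 1 group, called biological replicates 1 and 2 in the labels and library 1 and library 2 here. The labels list 1 donor entry for both but a biosample each, so some of their spread may be technical. No strain, genotype or treatment is named, and a single group allows no comparison of conditions. The tables sum to 51190552 expected counts in library 1 and 44256272 in library 2. Globin genes took 72.3% and 72.2% of these, leaving 14155915 and 12299417 counts for all other genes.

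A chromosome is licensed for copying before S phase, when the origin recognition complex, Cdc6 and Cdt1 load rings of MCM2-7 onto DNA; geminin, the product of Gmnn, later blocks Cdt1 so that no origin is licensed again. Cdc45 and the GINS complex join the loaded ring to make the moving helicase, polymerase alpha-primase lays down primers, and polymerases delta and epsilon extend them while held by the clamp PCNA, which the RFC complex places on DNA. RPA covers the exposed single strands, and Fen1 and Lig1 trim and join the pieces of the lagging strand. Many of these genes are known targets of the E2F factors, which switch on transcription for S phase. Fetal liver erythroblasts pass through several divisions while they fill with haemoglobin, and stop dividing before the nucleus is expelled.

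The promoters of 33 of the 41 genes were matched in RefSeq (build GRCm38.p6, from 250 bases before to 50 bases after a start) and searched on both strands for an E2F element, spelled TTTCCCGC, TTTCGCGC, TTTGCCGC or TTTGGCGC, and for the CCAAT box, CCAAT. An E2F word was present in at least 1 promoter of 15 of the 33 genes, or 45.5%, against 2.61% of 27025 genes in the same table and 3.29% of its 17491 protein coding genes. CCAAT was present for 21 of the 33, or 63.6%, against 41.1% of all genes. TTTGCCGC occurred in none of the 33. Both motifs were present for 8 genes and neither for 5. The unmatched genes were Mcm4, Gins1, Gins2, Gins4, Gmnn, Rfc2, Prim2 and Pole. The MCM genes and Cdt1 are printed because the 5 matched ring genes make 1 complex, yet the gene with the highest level, Mcm2, is the only one of the 5 without an E2F word in this window. Capitals mark the E2F words and CCAAT boxes, on either strand, and each sequence runs 5′ to 3′ along its gene's strand.
Mcm2: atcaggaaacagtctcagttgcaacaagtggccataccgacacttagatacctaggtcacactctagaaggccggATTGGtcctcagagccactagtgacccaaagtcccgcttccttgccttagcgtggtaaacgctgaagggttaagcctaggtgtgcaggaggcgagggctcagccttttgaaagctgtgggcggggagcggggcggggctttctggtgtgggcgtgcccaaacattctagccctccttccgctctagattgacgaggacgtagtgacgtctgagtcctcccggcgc
Mcm3: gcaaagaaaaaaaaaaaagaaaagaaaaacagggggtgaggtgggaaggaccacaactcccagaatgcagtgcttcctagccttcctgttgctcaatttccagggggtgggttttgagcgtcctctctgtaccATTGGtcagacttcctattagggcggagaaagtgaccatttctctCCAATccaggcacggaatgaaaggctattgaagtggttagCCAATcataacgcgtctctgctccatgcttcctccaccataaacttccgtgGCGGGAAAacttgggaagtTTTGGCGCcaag
Mcm5: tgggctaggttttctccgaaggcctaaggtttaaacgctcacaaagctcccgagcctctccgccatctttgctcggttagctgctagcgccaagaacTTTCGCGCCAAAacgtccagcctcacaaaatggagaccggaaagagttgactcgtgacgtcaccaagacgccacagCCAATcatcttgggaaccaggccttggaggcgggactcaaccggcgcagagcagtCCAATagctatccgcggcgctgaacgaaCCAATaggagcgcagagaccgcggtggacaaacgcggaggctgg
Mcm6: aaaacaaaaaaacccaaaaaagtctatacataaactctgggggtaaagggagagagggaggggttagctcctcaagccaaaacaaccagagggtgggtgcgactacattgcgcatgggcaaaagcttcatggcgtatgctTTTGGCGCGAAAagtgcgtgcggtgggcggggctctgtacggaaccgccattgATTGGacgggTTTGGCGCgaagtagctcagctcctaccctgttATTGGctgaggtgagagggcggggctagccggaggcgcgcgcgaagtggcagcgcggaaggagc
Mcm7: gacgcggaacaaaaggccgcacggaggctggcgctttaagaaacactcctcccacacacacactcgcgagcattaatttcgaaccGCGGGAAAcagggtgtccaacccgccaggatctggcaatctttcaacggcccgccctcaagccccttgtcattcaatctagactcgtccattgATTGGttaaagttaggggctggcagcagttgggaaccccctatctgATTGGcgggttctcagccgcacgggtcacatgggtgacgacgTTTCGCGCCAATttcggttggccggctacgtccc
Cdt1: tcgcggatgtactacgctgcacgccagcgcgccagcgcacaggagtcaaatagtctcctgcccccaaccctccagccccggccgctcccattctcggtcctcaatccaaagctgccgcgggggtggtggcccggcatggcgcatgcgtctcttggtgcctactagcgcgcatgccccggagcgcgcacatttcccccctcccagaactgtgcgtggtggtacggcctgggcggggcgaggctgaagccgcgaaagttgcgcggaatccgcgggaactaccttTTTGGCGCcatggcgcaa
These lie at chr6:88898731-88899030 (minus strand) for Mcm2, chr1:20820263-20820562 (minus) for Mcm3, chr8:75109259-75109558 (plus) for Mcm5, chr1:128359656-128359955 (minus) for Mcm6, chr5:138171834-138172133 (minus) for the upstream of the 2 starts of Mcm7, and chr8:122567765-122568064 (plus) for Cdt1. Mcm3 held 2 E2F words and 3 CCAAT boxes. Mcm5 held 2 E2F words, which overlap in the run TTTCGCGCCAAA, and 3 CCAAT boxes. Mcm6 held 3 E2F words, of which 2 overlap, and 2 CCAAT boxes. Mcm7 held 2 E2F words and 3 CCAAT boxes at the printed start, where an E2F word and a CCAAT box overlap in TTTCGCGCCAAT; its other start held 1 CCAAT box and no E2F word. Cdt1 held 1 E2F word, 33 bases after the start, and no CCAAT box. Mcm2 held 1 CCAAT box and no E2F word.

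By complex, an E2F word was found for 2 of 6 origin recognition genes (Orc1 and Orc3), both matched licensing genes (Cdc6 and Cdt1), 4 of 5 ring genes, 1 of 3 helicase activation genes (Gins3), 1 of 3 polymerase alpha-primase genes (Pola1), 3 of 4 polymerase delta and epsilon genes (Pold1, Pold3 and Pole2), 1 of 5 clamp genes (Rfc3), 0 of 3 single-strand binding genes and 1 of 2 lagging-strand genes (Lig1, at 1 of its starts). Genes with the word spanned 0.31 to 84.6 TPM, with a median of 2.06 TPM. The 18 matched genes without it had a median of 5.61 TPM. TPM is the length-corrected relative abundance of a gene's transcripts, with the same total in each library.

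Most of the replication genes were expressed at a low to moderate level, with a few far above the rest. Of the 41 genes, 30 reached 1 TPM in both libraries, or 73.2%, against 10.4% of all Ensembl genes and 4296 of the 21474 protein coding genes. Taken singly, library 1 had 30 such members and library 2 had 35. The median of the mean level was 4.55 TPM, beside 0.02 TPM over all protein coding genes and 5.02 TPM over protein coding genes that reached 1 TPM in both libraries. None was at 0, and the lowest count was 22, for Orc4 in library 2. Together they summed to 358 TPM in library 1 and 444 TPM in library 2 (401 ± 60.8, SD, n = 2), which was 0.256% and 0.285% of TPM outside the globin genes. Cdt1, Lig1, Pold1 and Mcm2 made up 51.9% and 49.4% of that sum. These are bulk cells: fewer cells of a type and less RNA per cell cannot be told apart. Unless single libraries are named, levels are mean TPM ± SD over the 2 libraries (n = 2).

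**Figure D1:**
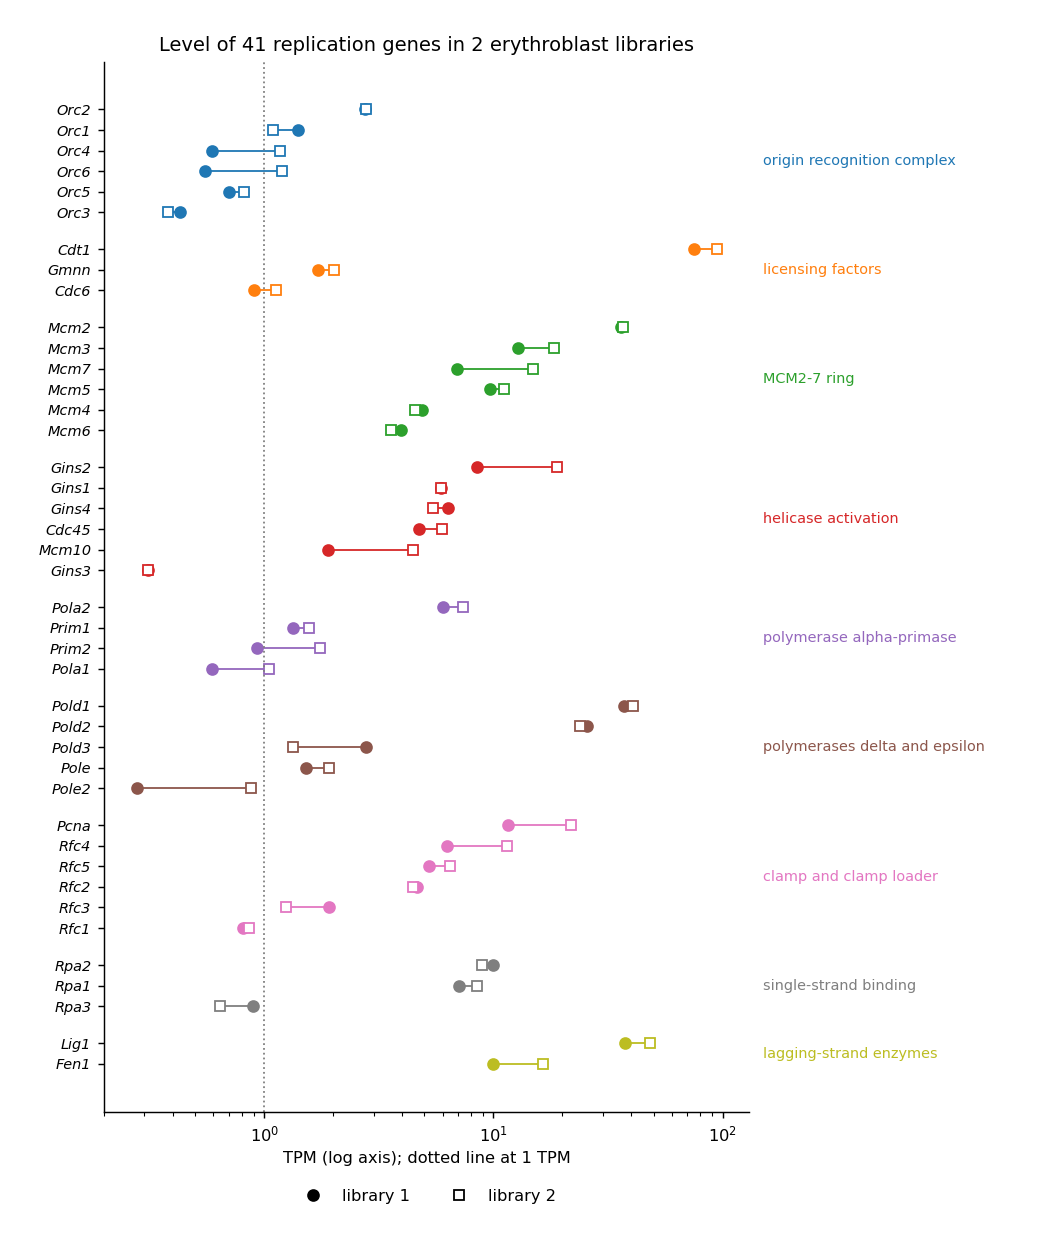
TPM (log axis) of each of the 41 genes in library 1 (filled circles) and library 2 (open squares), grouped by complex and ordered by mean level, with a dotted line at 1 TPM. Cdt1 stands highest, at 75.3 and 94.0 TPM, and most of the origin recognition genes lie near or below the line.

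The origin recognition complex, which marks origins, had the lowest median level of the groups by total TPM, 0.875 TPM: its 6 genes summed to 6.44 and 7.43 TPM, and only Orc1 and Orc2 reached 1 TPM in both libraries. Orc2, a core subunit, was highest with 2.76 TPM in library 1 and 2.78 TPM in library 2. Orc1, an ATPase subunit, had 1.41 and 1.09 TPM. The remaining 4 lay under 1 TPM in at least 1 library: Orc5 had 0.70 and 0.82 TPM, Orc3 had 0.43 and 0.38 TPM, and Orc4 and Orc6 had 0.59 and 0.55 TPM in library 1 against 1.17 and 1.19 TPM in library 2. The highest mean was 6.84 times the lowest, with 6.42 in library 1 and 7.32 in library 2; by coding transcripts alone it was 16.3 times, with 11.04 in library 1 and 30.9 in library 2. Counts for this complex were small, from 22 for Orc4 to 311 for Orc1, and 72.1% of the TPM of Orc2 was assigned to a coding transcript of 370 bases, so its level per length rests on that assignment. Of the exonic 31-base words of Orc2, 27.9% also occur in Nif3l1 on the opposite strand.

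The licensing factors were very unequal. Cdt1, which carries the MCM ring to the origin (chromosome 8, 122568015 to 122573554 in mm10), had 75.3 TPM in library 1 and 94.0 TPM in library 2 (84.6 ± 13.3), the highest of the 41 genes and above 98.9% of protein coding genes. Its inhibitor Gmnn (chromosome 13, 24751845 to 24761923) had 1.71 and 2.01 TPM (1.86 ± 0.212). Cdt1 was therefore 44.0 and 46.8 times Gmnn (45.4 ± 1.95), and the ratio differed far less between the libraries than it differed from 1. Cdc6, the ATPase that works with Cdt1 in loading, had 0.90 and 1.13 TPM, so that Cdt1 was 83.6 and 83.2 times Cdc6 by total TPM. By coding transcripts, which held 76.7% and 46.0% of the TPM of Cdc6, Cdt1 was 109 and 181 times Cdc6. Cdt1 has a single quantified transcript, of 2189 bases, and rested on 15077 and 14703 counts, whereas Gmnn rested on 139 and 128.

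All 6 genes of the MCM2-7 ring reached 1 TPM in both libraries, and they summed to 74.5 and 89.4 TPM. Their products stand in equal number in the ring, but their messenger RNAs did not. Mcm2 (chromosome 6, 88883474 to 88898780) was highest with 36.1 TPM in library 1 and 36.7 TPM in library 2. Mcm3 had 12.9 and 18.4 TPM, Mcm5 had 9.66 and 11.2 TPM, and Mcm7 had 6.95 and 14.95 TPM, a range that overlaps those of both. Mcm4 had 4.89 and 4.57 TPM and Mcm6, the lowest, 3.97 and 3.59 TPM. By coding transcripts alone Mcm3 had 6.68 and 4.15 TPM and Mcm7 had 3.57 and 8.86 TPM, so Mcm3 then lay below Mcm5. Mcm2 was 9.10 and 10.2 times Mcm6, 7.39 and 8.04 times Mcm4, and 3.74 and 3.29 times Mcm5. Mcm2, Mcm4 and Mcm5 each have 1 quantified transcript, so among those 3 genes no reads were divided between transcripts. That is a property of the annotation used for the counts. The later annotation holds 6956 exon bases for Mcm2 against 3370 in that transcript, and 3993 against 3422 for Mcm5. Whether other transcripts would change the order was not tested.

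The factors that turn the loaded ring into a helicase summed to 27.7 and 41.1 TPM. Cdc45, which binds the ring, had 4.73 and 5.98 TPM. Of the GINS complex, whose 4 subunits also join in equal number, Gins1 had 5.91 and 5.92 TPM, Gins4 had 6.32 and 5.44 TPM, Gins2 had 8.50 and 19.0 TPM and Gins3 had 0.31 TPM in both. Gins3, with 1 quantified transcript and 69 and 53 counts, was the lowest of all 41 genes. Gins2 was 27.4 and 61.3 times Gins3 by total TPM but 5.61 and 6.42 times by coding transcripts alone. Its 511-base transcript with a retained intron took 33.3% of its TPM in library 1 and 76.1% in library 2. Gins2 also overlaps Gse1, a gene on the opposite strand with 11053 and 9071 counts, over 2758 exon bases; whether reads were counted by strand is not given in the sources used here. Mcm10, which helps activate the helicase, had 1.90 and 4.44 TPM.

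Among the polymerase genes of the 41, the catalytic subunit of delta and its closest partner stood above every alpha and epsilon subunit by total TPM. Pold1, the catalytic subunit of polymerase delta (chromosome 7, 44532746 to 44548849), had 37.2 and 40.5 TPM, and its partner Pold2 had 25.5 and 23.9 TPM. The accessory subunit Pold3 had 2.77 and 1.34 TPM. Pole, the catalytic subunit of the leading-strand polymerase epsilon, had 1.52 and 1.91 TPM and Pole2 had 0.28 and 0.88 TPM. Pold1 was 24.5 and 21.2 times Pole by total TPM and 6.98 and 6.67 times by coding transcripts. By counts per kilobase of the longest coding transcript, a scale added after seeing the data, it was 35.1 and 24.4 times. The order thus held while the ratio did not. Transcripts of Pold1 with no type, which hold 25.4% and 17.9% of its TPM, are left out of the coding values. Short coding transcripts held most of those values. A 747-base one had 1.05 of 1.21 and 1.02 of 1.31 TPM for Pole. For Pold1 a 581-base one had 5.08 of 8.45 and 5.77 of 8.74 TPM. In polymerase alpha-primase, the regulatory subunit Pola2 had 6.0 and 7.40 TPM, against 0.59 and 1.05 TPM for the catalytic subunit Pola1, which makes Pola2 10.2 and 7.05 times as abundant. By coding transcripts alone Pold2 had 4.40 and 9.33 TPM, a range that overlaps the 6.01 and 7.39 TPM of Pola2, so that part of the order rests on the total. Outside the 41 genes, the epsilon subunits Pole4 and Pole3 had 17.9 and 15.5 TPM and 9.84 and 9.34 TPM, also below Pold1 and Pold2. By coding transcripts, however, Pole4 had 17.9 and 15.2 TPM, above Pold1 with 8.45 and 8.74 TPM and above Pold2. Pole3 had 4.62 and 4.68 TPM on that scale. The delta subunit Pold4 had 0.45 and 0.78 TPM. By total TPM the primase genes lay between Pola2 and Pola1 in each library, with Prim1 at 1.34 and 1.57 TPM and Prim2 at 0.93 and 1.75 TPM; by coding transcripts Prim1 had 0.59 and 0.60 TPM, against 0.58 and 1.05 TPM for Pola1.

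Pcna, the sliding clamp, had 11.5 and 21.7 TPM. It was the only member whose expected counts lay more than 0.01 from a whole number; 23.3% of its 31-base words also occur in the pseudogene Pcna-ps2, to which 172 and 79.7 counts were assigned. The clamp loader genes were spread widely by total TPM. Rfc4 had 6.25 and 11.5 TPM, Rfc5 had 5.26 and 6.48, and Rfc2 had 4.63 and 4.46. Rfc3 had 1.91 and 1.24, and Rfc1, the large subunit, had 0.81 and 0.86 TPM. By coding transcripts alone Rfc4 had 0.76 and 1.11 TPM. It then lay below Rfc2, with 4.63 and 4.46 TPM, and Rfc5, with 4.52 and 3.70 TPM. Of the RPA trimer, the 2 larger subunits had close levels by total TPM, with Rpa1 at 7.07 and 8.44 TPM and Rpa2 at 9.96 and 8.90 TPM, whereas Rpa3, the smallest, had 0.89 and 0.64 TPM from 46 and 26 counts. By coding transcripts alone Rpa1 had 2.83 and 2.77 TPM and Rpa2 had 1.53 and 1.38 TPM, so that Rpa2 was 1.72 and 2.16 times Rpa3 in place of 11.2 and 13.9 times by total TPM. Lig1, which seals the lagging strand (chromosome 7, 13277283 to 13311433), had 37.6 and 48.4 TPM and was second of the 41 genes. Fen1, which cuts flaps from it, had 9.94 and 16.5 TPM; 79.6% of its 31-base words are shared, mostly with Gm10143, an antisense gene with 5 and 0 counts.

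The level of several of these genes depended on which transcripts carried their reads. Of the 36 genes with at least 50 counts in each library and a type for transcripts that hold most of their counts, the leading transcript was protein coding in 27 by TPM and in 32 by counts, since short transcripts weigh more in TPM. Coding transcripts held under 50% of TPM in both libraries for 9 of the 36 genes, or 25%, against 15.8% of 6246 genes treated the same way. Transcripts with a retained intron held over 25% of the counts in both libraries for 5 genes, or 13.9%, against 7.08% of all. These were Rpa2 with 69.3% and 68.7%, Prim1 with 47.6% and 48.3%, Pold1 with 40.5% and 45.2%, Pole with 27.2% and 35.9%, and Lig1 with 27.6% and 28.7%. The shares of these genes stayed within 10 percentage points between the libraries, which their selection by a share over 25% in both libraries favours. Other genes differed more: Mcm3 had 20.9% in library 1 and 58.2% in library 2, and Rfc3 had 74.4% and 20.4%. Mcm10 had 62.8% and 24.9%, Gins2 had 11.7% and 40.5%, and Pold3 had 31.2% and 9.13%.

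**Figure D2:**
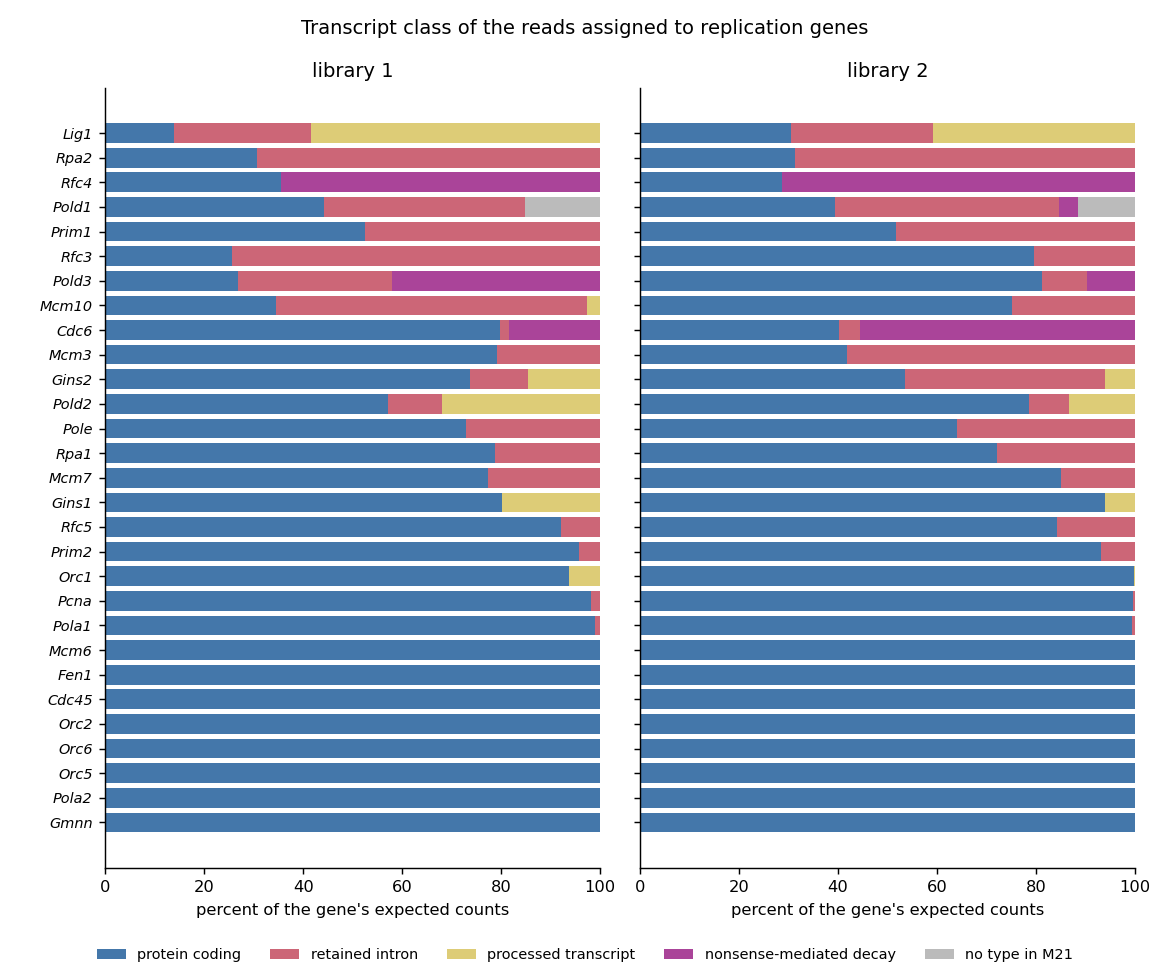
Percent of each gene's expected counts assigned to each class of transcript in library 1 (left) and library 2 (right), for the eligible genes with more than 1 annotated transcript. Rpa2 and Pold1 keep their share of retained-intron transcripts in both libraries, whereas Rfc3 and Mcm3 change theirs.

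In Pold1, coding transcripts held 22.7% and 21.6% of TPM, but a further 25.4% and 17.9% lay in 3 transcripts with no type in the later annotation, so the coding share may be larger. In Rpa2 coding transcripts held 15.4% and 15.5%. Rfc4 had 87.8% and 90.4% of its TPM in a 416-base transcript annotated for nonsense-mediated decay, which leaves 12.2% and 9.65% for its coding transcripts. Pold2 had 69.4% and 45.3% in a processed transcript of 342 bases. Lig1 had 58.5% of its counts in library 1 and 29.5% in library 2 in a 2968-base transcript typed as processed and not as coding, so its coding share of 22.2% and 41% of TPM depends on that label. That share also rests on a 944-base coding transcript, which had 7.16 of 8.37 and 18.55 of 19.84 coding TPM. Counting coding transcripts alone, 25 of the 40 genes with a coding value reached 1 TPM in both libraries. The sum was 234 and 298 TPM, the median was 2.32 TPM, and Cdt1 and Mcm2 were the highest. The count of genes at 1 TPM by coding transcripts was chosen after seeing the data. Rfc1 is left out of that count, sum and median, because 6 of its 7 transcripts have no type in the later annotation used here.

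Over the 41 genes, levels followed GC content. The Spearman correlation between the GC content of a gene's transcripts and its mean TPM was 0.718 over the 41 genes, beside 0.299 over all 21474 protein coding genes. Of the latter only 4296 reached 1 TPM in both libraries, against 30 of the 41, so these values are not directly comparable. For the 41 genes the correlation was also taken on other scales. It was 0.637 with coding transcripts alone over 40 genes. With counts per kilobase of the longest coding transcript, a scale added after seeing the data, it was 0.657. The points share the 2 libraries, and the correlation is a description with no test. Transcripts of Pold1, Cdt1, Pold2 and Mcm2 had 60.4%, 59.0%, 58.9% and 58.0% GC. Those of Rpa3, Orc4 and Orc3 had 37.3%, 38.2% and 41.3%. Pcna, with 42.0% GC and 16.6 TPM on average, and Gins3, with 51.5% GC and 0.31 TPM, lay off this trend. Whether GC content affected recovery of these transcripts in the libraries was not tested.

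**Figure D3:**
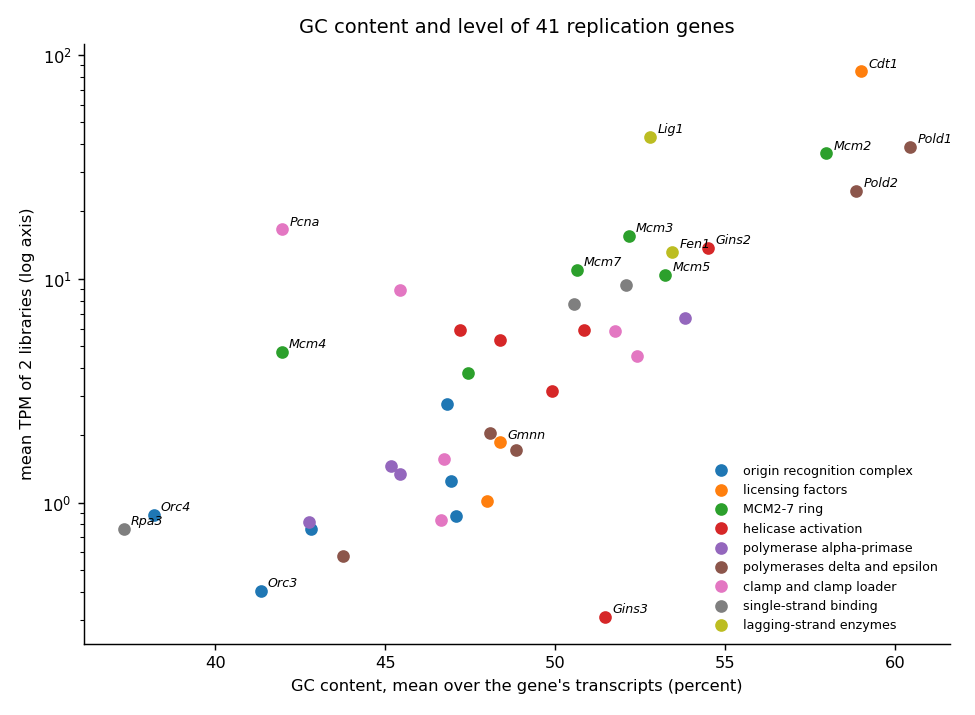
Mean TPM of the 2 libraries (log axis) against GC content in percent for the 41 genes, coloured by complex. The genes with the highest GC content, Pold1, Cdt1, Pold2 and Mcm2, are among those with the highest levels, and Pcna and Gins3 lie off the trend.

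The libraries were then compared gene by gene on CPM, counts relative to library size without length correction, scaled by edgeR's trimmed mean of M values, by an exact conditional binomial test, two-sided, and Benjamini-Hochberg adjustment over 10955 genes. The test covers counting error only and compares these 2 libraries, not conditions. It called 24 of the 41 genes, 10 higher in library 1 and 14 higher in library 2, or 58.5%, against 44.2% of all tested genes, of which 22.1% were higher in library 1 and 22.0% in library 2. Calls were more frequent at higher counts: 23 of the 38 members with 100 or more counts were called, beside 54.3% of all such genes, and 15 of the 20 with 1000 or more, beside 70.5%. The share called was thus near that of genes of similar depth. The median log2 ratio of library 1 over library 2 was 0.027 for the members and 0.0060 for all tested genes.

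Most of the largest differences among the members were toward library 2. Mcm7, a ring subunit, had 24.2 CPM in library 1 and 49.7 CPM in library 2, a log2 ratio of -1.01 (adjusted p = 4.16e-93), and library 2 was 2.05-fold higher with a 95% exact interval of 1.91 to 2.20. Pcna had 30.0 CPM in library 1 and 51.2 CPM in library 2, or 1.70-fold higher in library 2 (1.60 to 1.82; adjusted p = 6.02e-58). Mcm10 was 1.78-fold higher in library 2 (1.57 to 2.02; adjusted p = 3.69e-19) and Fen1 was 1.47-fold higher there (1.39 to 1.55; adjusted p = 8.24e-39). Of the genes with few counts, Pole2 had 42 counts in library 1 and 105 in library 2 (2.85-fold, 1.98 to 4.19; adjusted p = 1.98e-08) and Orc6 had 80 and 137 (1.95-fold, 1.47 to 2.61; adjusted p = 1.03e-05). Prim2, Pola1 and Rfc4 were also at least 1.5-fold higher in library 2. Of the 38 members with 100 or more counts, 8 were at least 1.5-fold apart in either direction, beside 19.6% of all genes of that depth. Of these, 0 were higher in library 1 and 8 in library 2, beside 9.58% and 10.02% of all genes of that depth. Of the 31-base words of Mcm7, 33.4% also occur in other genes, mostly Gm5487, and its counts were whole numbers. Gm5487, as identified in the later annotation, was not among the genes that the authors quantified. Whole-number counts therefore do not show whether reads of that gene entered the counts of Mcm7, which was not tested.

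**Figure D4:**
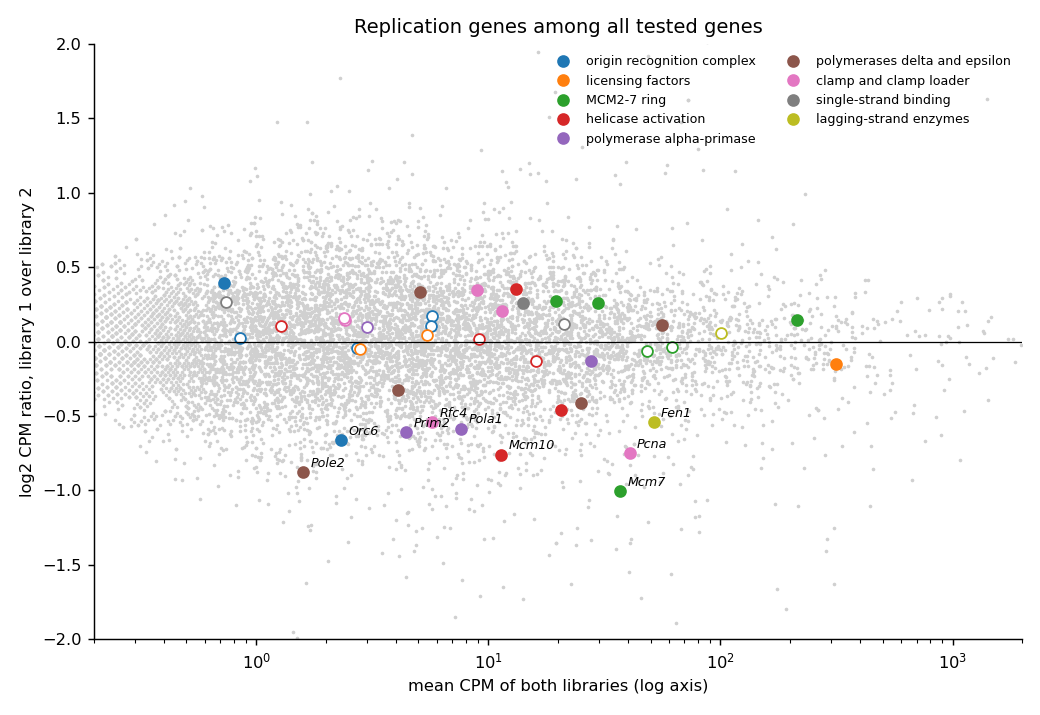
Log2 ratio of library 1 over library 2 in scaled CPM, with a pseudocount of 1, against mean CPM (log axis) for all tested genes (grey; 25 lie beyond the axis limits) and the 41 replication genes (coloured by complex; filled where the adjusted p is under 0.05). Mcm7, Pole2, Mcm10 and Pcna lie farthest below 0, and the other ring genes lie near it.

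Apart from Orc4, the genes called higher in library 1 differed by at most 1.32-fold. Orc4 was 1.95-fold higher in library 1 (1.16 to 3.39; adjusted p = 0.0261) from 49 and 22 counts. The others called were Mcm2, Mcm4, Mcm6, Gins4, Pold1, Pold3, Rfc2, Rfc5 and Rpa2, from 1.08-fold for Pold1 to 1.32-fold for Pold3. Rpa3 was 1.55-fold higher in library 1 without passing the test (0.938 to 2.61; adjusted p = 0.164). Within the ring the libraries thus differed in both directions: Mcm2, Mcm4 and Mcm6 were higher in library 1 and Mcm7 in library 2, while in library 1 Mcm3 had 0.956 times (0.902 to 1.01; adjusted p = 0.224) and Mcm5 0.973 times (0.924 to 1.02; adjusted p = 0.42) the CPM of library 2. In library 1 Lig1 had 1.04 times the CPM of library 2 (0.998 to 1.08; adjusted p = 0.118). Of the 5 polymerase delta and epsilon genes all 5 were called, Pold1 and Pold3 higher in library 1 and Pold2, Pole and Pole2 in library 2. Over all tested genes 44.2% were called, and 54.3% of those with 100 or more counts, so calls in so small a group are not particular to it.

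The unit changes the direction for some genes. By TPM 29 of the 41 were higher in library 2, but by scaled CPM 19 were, and the sign differed between the units for 12. The authors' effective length, which enters TPM and depends on the transcripts that reads were assigned to, differed by more than 1.2-fold between the libraries for 9 of the 41. Orc4 shows this: library 1 held more counts, 49 against 22, but a lower level per length, 0.59 TPM against 1.17 TPM, with an effective length of 847 bases in library 1 and 247 in library 2. Mcm2, however, changed sign with nearly equal effective lengths, 3228 bases in library 1 and 3234 in library 2. Mcm2 had 224 and 203 CPM but 36.1 and 36.7 TPM. Mcm4, Mcm5 and Cdt1, also with 1 quantified transcript and nearly equal effective lengths, kept their signs. Their log2 ratios, with a pseudocount of 1, were 0.258, -0.039 and -0.154 by scaled CPM. By TPM they were 0.081, -0.190 and -0.317. A lower ratio by TPM was therefore not confined to genes whose effective lengths differed. Over all tested genes, the median log2 ratio, library 1 over library 2, was 0.0060 by scaled CPM and -0.040 by TPM. Apart from Orc4, what set the sign was not tested. For Mcm7, Pole2, Mcm10, Pcna, Orc6 and Fen1 both units gave the same direction.

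By total TPM and by scaled CPM the 4 general proliferation markers were higher in library 1. So were 10 of the called replication genes by scaled CPM, while the other 14 were higher in library 2. Mki67 had 10.98 TPM in library 1 and 7.99 in library 2, Ccna2 had 53.7 and 38.0, Cdk1 had 7.38 and 5.65, and Ccnb1 had 1.55 and 0.69. By coding transcripts alone Ccna2 had 7.10 and 4.69 TPM and Ccnb1 had 1.27 and 0.63 TPM. Cdk1 had 1.06 and 1.21 coding TPM, which was higher in library 2. Mki67 was unchanged on that scale. All 4 passed the test, with log2 ratios of 0.62, 0.68, 0.44 and 0.82 on scaled CPM (adjusted p from 1.48e-164 to 1.18e-04). The 5 macrophage markers summed to 10.5 TPM in library 1 and 16.2 TPM in library 2; 3 of the 5 reached 1 TPM in both libraries and the defining Adgre1 had 0.04 and 0.03 TPM. C1qc, with 4.07 and 7.02 TPM, and Marco, with 2.34 and 3.71 TPM, were called higher in library 2 (adjusted p = 1.60e-10 and 1.35e-06), whereas C1qa, with 3.47 and 4.53 TPM, and Cd68, with 0.61 and 0.89 TPM, did not pass the test. Over all tested genes 44.2% were called, with 54.3% at 100 or more counts in both libraries together and 70.5% at 1000 or more. The part of the proliferation and macrophage markers in the differences between the libraries was not tested. Erythroblast markers were all 8 at 1 TPM or more and summed to 1419 and 1727 TPM. None of the 3 early progenitor markers reached 1 TPM, with sums of 0.97 and 0.82 TPM. The 5 hepatoblast and hepatocyte markers summed to 13.5 and 15.8 TPM (3 of 5 at 1 TPM), the 3 neutrophil markers to 5.43 and 6.99 TPM (2 of 3, Ly6g at 0), the 3 megakaryocyte markers to 10.5 and 13.2 TPM (2 of 3) and the 3 lymphoid markers to 0.11 and 0.17 TPM (none, Cd3e at 0).

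A further 40 genes of replication were examined beside the core set: 29 of them reached 1 TPM in both libraries. By total TPM the highest was Rnaseh2a, the catalytic subunit of the nuclease that removes ribonucleotides from DNA, with 163 and 199 TPM, of which coding transcripts held 5.10 and 7.56 TPM, against 75.3 and 94.0 TPM for Cdt1. Rnaseh2c, of the same enzyme, had 91.7 and 108 TPM, with 87.0 and 86.5 TPM in coding transcripts. Asf1b, a chaperone that delivers histones to new DNA, had 57.7 and 68.0 TPM, with 5.15 and 7.30 TPM in coding transcripts. Top1, which relaxes DNA ahead of the fork, had 39.4 and 48.4 TPM (36.9 and 45.8 TPM coding), and Chaf1b, of the histone-depositing complex CAF-1, had 20.3 and 25.3 TPM (10.5 and 16.6 TPM coding). The lowest were Mcm8 with 0.09 and 0.14 TPM, Mcm9 with 0.23 and 0.27 TPM, both relatives of the ring genes with roles in repair, and Stn1, of the complex that helps fill in telomere ends, with 0.38 and 0.25 TPM. The library test called 31 of the 40, 16 higher in library 1 and 15 in library 2. Over all tested genes 44.2% were called, with 54.3% at 100 or more counts in both libraries together and 70.5% at 1000 or more. The 40 genes were not matched to others by depth.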

How the data were processed

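The assembly was mm10 and the annotation GENCODE M4, per a list of files that the authors deposited. Which aligner, quantifier and strand setting were used is not given in the sources used here. For each library the authors deposited gene and transcript tables of expected counts, in which reads matching several features are divided, and TPM values corrected for effective length, in the columns that RSEM writes per the file headers. The deposited FPKM values and posterior mean TPM served as alternatives. Transcript shares of TPM are the deposited percent values, or sums of the deposited TPM over a class of transcripts. The members and lists were chosen with earlier results of these data known.

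Gene symbols, transcript types and GC content (mean over a gene's transcripts) came from GENCODE M21 of the same assembly. Expected counts were rounded to whole numbers, and edgeR 4.0.16 (R 4.3.3) gave TMM factors of 0.993 and 1.01. Library 1 against library 2 leaves 1 library on each side and no residual degrees of freedom for edgeR's quasi-likelihood test, so the libraries were compared by an exact binomial test on genes whose counts in both libraries summed to at least 10, with an adjusted p threshold of 0.05. Intervals are exact (Clopper-Pearson) at 95% and cover counting error only, since reads are not independent molecules. Sharing was the percent of a gene's 31-base words found in another gene, on either strand. Transcript shares were limited to genes with at least 50 counts in each library. All 41 members, the 5 highest and 3 lowest of the other replication genes by mean TPM and the marker lists were named by rule. Other genes are named only where they share sequence with or overlap a member, or are further subunits of polymerases delta and epsilon. Alternatives were DESeq2 1.42.0 size factors, total counts, other minima and pseudocounts, a GC correction in 20 bins, coding transcripts alone and each library alone. Promoters came from RefSeq; a planned search of protein motifs was not run. Python 3.11.15, numpy 2.4.6, pandas 2.3.3, scipy 1.17.1 and matplotlib 3.10.9 were used.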

Additional observations from a re-analysis of the deposited data

How the results depend on the processing

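With coding transcripts alone the summed level was 266 TPM against 401, and the median level was 2.32 TPM against 4.55. The highest over the lowest of the origin recognition genes was 5.32 with posterior mean TPM, 16.3 with coding transcripts (11.04 and 30.9 in single libraries) and 10.7 with counts per kilobase of the longest coding transcript, and that of the MCM2-7 ring was 14.3 with the last of these, against 9.64. The median log2 ratio of the members, 0.027, changed sign to -0.16 with TPM (all tested genes -0.040) and to -0.026 with the GC correction (all tested genes -0.0016), so it carries no direction. Leaving out each library gave 30 to 35 genes at 1 TPM, a sum of 358 to 444 TPM, a median of 4.46 to 4.63 TPM and ratios of 9.10 to 10.2 in the ring and 6.42 to 7.32 in the origin recognition complex. At 0.5 TPM 38 genes passed, at 2 TPM 23. Calls between the libraries numbered 23 or 24 under each setting; Pola2 lost its call with DESeq2 size factors (adjusted p = 0.0547) and Rfc2 with total counts (adjusted p = 0.0526). The coding count at 1 TPM and the counts per kilobase were added after the data were seen. Genes near 1 TPM rest on few counts, which limits their order. No paired analysis was possible because there is 1 group.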
